A study of Homo sapiens with 6 samples.

Results

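Integrins and the cytoplasmic proteins that bind to them were followed through RNA sequencing of a colon carcinoma cell line, as a set of 45 genes among the 60546 measured. The set held 25 integrin subunits, of which 17 were alpha and 8 were beta subunits, and 20 cytoplasmic adhesion proteins. Members were the genes whose symbol in the deposited table was one of the 45 names, and all 45 were found. All 45 also passed the filter on low values, which asked for a value of 1 or more in no fewer than 3 libraries and left 26536 genes to test.

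The cells were HCT-116, an established line from a human colon carcinoma, labelled wild type and grown in DMEM with fetal bovine serum. Both groups carried the viral expression vector PMSCV as stable lines, with the GOLPH3 cDNA in 3 libraries and empty in the other 3. GOLPH3 is a Golgi membrane protein that helps vesicles leave the Golgi. The methods describe 1 line per construct, harvested at different generations, so p-values here measure only the spread between these samples and 2 lines are compared. The library titles carry a P number whose meaning the labels do not state, and it was P8, P12 and P13 for GOLPH3 replicates 1, 2 and 3 and P12, P11 and P13 for Vector replicates 1, 2 and 3.

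Integrins are receptors of 1 alpha and 1 beta chain that span the plasma membrane and hold a cell to the extracellular matrix or to other cells. Inside the cell talins and kindlins bind the beta tail and switch the receptor on, and vinculin, the complex of ILK with PINCH and parvin, tensins, paxillin and zyxin link it to actin. The kinases FAK and SRC and the CAS scaffolds carry the signal onward. In gut epithelium, receptors for laminin anchor the cells to the basement membrane, with alpha6 and beta4 together in hemidesmosomes.

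The values were reads scaled by the size factor of their library, called normalized reads here, from 15708846 to 21900764 reads per library. A count of 0 allows up to 3 reads, equal to 2.47 to 3.29 on the normalized scale by library, a limit that covers counting error only. The GOLPH3 gene itself had 1629.5, 1272 and 1383 normalized reads in the GOLPH3-labelled libraries and 1968, 1892 and 1472 in the Vector-labelled ones, a log2 difference of -0.31 with a standard error of 0.27 and a limma adjusted p of 0.609. The transcript was thus not detectably higher where the label says it should be, so groups are named by their labels. By western blot, which measures protein rather than RNA, the paper reports that its GOLPH3-overexpressing HCT-116 line was obtained. Replicates differed by more than sampling noise, with a lowest chi-square per degree of freedom of 65.35 among same-group pairs. Of the colon epithelial markers, KRT20 was at 0 in every library and CDX1 had at most 3 reads, while EPCAM had 5917 to 6129 normalized reads in the GOLPH3-labelled and 1758 to 4220 in the Vector-labelled libraries. A list of 8 genes known from embryonic kidney lines such as HEK293 summed to 129 to 144 normalized reads in the GOLPH3-labelled libraries and to 4135, 3039 and 8730 in Vector replicates 1, 2 and 3. Of its 7 tested genes 5 were lower in the GOLPH3-labelled libraries, beside 4.12% of all genes called lower. The list was chosen with earlier results of these data known, so this count is a description and cannot serve as a test. In bulk RNA, fewer cells of a type and less RNA per cell cannot be told apart.

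Single subunits stood out, and both directions were present. ITGA3, ITGB4 and ITGB5 were higher in the GOLPH3-labelled libraries, and ITGA4 and ITGA8 were near 0 there. No cytoplasmic protein passed the same test. Since ITGA4 and ITGA8 were the members that had reads in every Vector-labelled library and almost none in the others, the DNA just before their start sites is shown, read from RefSeq promoter windows on GRCh38.p14. Each stretch runs 5′ to 3′ up to the base before the gene's start in GENCODE 29, with CG dinucleotides, where DNA can be methylated, in capitals. ITGA4 is at chr2:181457136-181457201 on the plus strand and ITGA8 at chr10:15720126-15720172 on the minus strand.
ITGA4: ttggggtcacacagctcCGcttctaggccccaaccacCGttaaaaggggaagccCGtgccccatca
ITGA8: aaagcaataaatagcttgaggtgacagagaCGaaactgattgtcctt
The 66 bases of ITGA4 held 3 CG and the 47 bases of ITGA8 held 1. For both genes the RefSeq start lies further into the gene than the GENCODE 29 start. Most of each 250-base window is therefore inside the annotated gene. In the full 250 bases before the RefSeq start the ITGA4 window held 25 CG and the ITGA8 window 19, against a median of 11 over 35116 such windows and of 10 over the 59 windows found for 32 of the 45 members. Of all windows, 21.6% held at least as many CG as that of ITGA4 and 34.6% at least as many as that of ITGA8. The E-box CACCTG, which reads CAGGTG on the other strand, was in neither of these windows, and it was in 17.5% of all windows and 13 (22.0%) of the members' 59. No methylation was measured, and a match is a description only.

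Across the set, 5 of 45 members (11.1%) had an adjusted p under 0.05 in limma with Benjamini-Hochberg adjustment over all genes tested, where 5.07% of all genes did. The 3 higher members stand beside 0.953% of all genes called higher, and the 2 lower ones beside 4.12% called lower. At an unadjusted p under 0.05 there were 12 members higher and 5 lower, 17 of 45 (37.8%) against 17.6% of all genes. The 3 libraries of a group did not overlap those of the other for 14 members (31.1%) against 22.0% of all genes. The median log2 fold change was 0.24 over the members and 0.02 over all genes, with 31 of the 45 above 0. No test was made of the set as a whole.

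**Figure D1:**
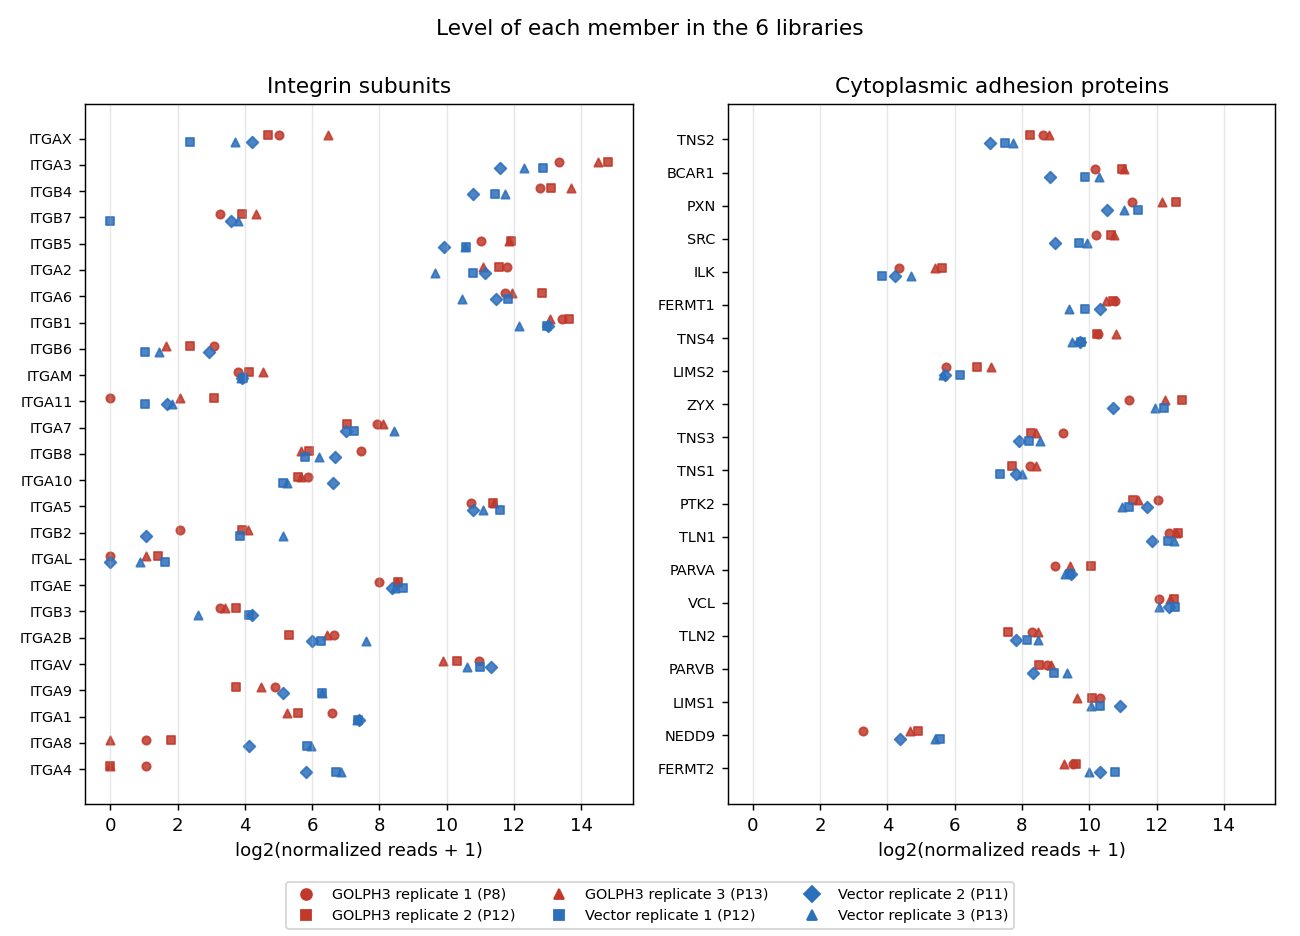
Level of each of the 45 members in each library as log2(normalized reads + 1), with GOLPH3-labelled libraries in red, Vector-labelled in blue and the P number by marker shape, ordered by fold change within each class. ITGA3 and ITGB4 lie among the highest integrins with red right of blue, and ITGA4 and ITGA8 are at or near 0 in red.

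The laminin receptors held the clearest rises. ITGA3 (ENSG00000005884, chromosome 17 from 50055968 to 50090481, plus strand, GRCh38) encodes the alpha3 chain, which pairs with beta1 to bind laminin-332. It had 10294, 28462 and 23190 normalized reads in GOLPH3 replicates 1, 2 and 3 and 7477, 3059 and 5009 in Vector replicates 1, 2 and 3. All the GOLPH3-labelled libraries lay above all the Vector-labelled ones, with replicate 1 (P8) the lowest of its group. The means were 20649 ± 9347 and 5182 ± 2214 (SD, n = 3), a rise of 1.96 on the log2 scale (SE 0.43, limma adjusted p = 0.0181). The difference was 1.93 between the P12 libraries and 2.21 between the P13 libraries. The call was lost without GOLPH3 replicate 2 (limma adjusted p = 0.0577), GOLPH3 replicate 3 (0.0706) or Vector replicate 3 (0.0667), with the log2 change then 1.67, 1.82 and 1.99.

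ITGB4 (ENSG00000132470, chromosome 17 from 75721328 to 75757818, plus strand) encodes beta4, whose long cytoplasmic tail binds keratin-linked proteins of the hemidesmosome. It had 6975, 8823 and 13315 normalized reads in the GOLPH3-labelled libraries and 2752, 1773 and 3376 in the Vector-labelled ones. The groups did not overlap, and the P13 library was the highest in each. The means were 9704 ± 3260 and 2634 ± 808 (SD, n = 3), a rise of 1.88 on the log2 scale (SE 0.34, limma adjusted p = 0.00519). Within the P12 and P13 libraries the difference was 1.68 and 1.98.

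The only partner known for beta4 is alpha6, encoded by ITGA6. ITGA6 had 3410, 7279 and 3950 normalized reads against 3652, 2842 and 1416, so GOLPH3 replicate 1 lay below Vector replicate 1 and the groups overlapped. Its log2 difference was 0.91 (SE 0.40, limma adjusted p = 0.256), which missed the threshold. ITGA7, the laminin receptor chain of muscle, ranged from 131 to 278 in the GOLPH3-labelled and 128 to 343 in the Vector-labelled libraries. The 4 laminin-binding subunits had a median log2 fold change of 1.40. Of the 4, 2 passed the test, both higher, beside 0.953% of all genes called higher.

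Among the collagen receptors none passed the test. ITGA2, the alpha2 chain of the main collagen receptor of epithelium, had 3530, 3014 and 2178 normalized reads against 1759, 2238 and 809, and GOLPH3 replicate 3 lay just below Vector replicate 2. Its log2 difference was 0.95 (SE 0.38, limma adjusted p = 0.208). ITGA1, whose alpha1 chain prefers collagen IV, had 95.5, 47.0 and 37.4 against 164, 167 and 160. The Vector-labelled libraries were close together and all above the GOLPH3-labelled ones, at a log2 difference of -1.55 (SE 0.43, limma adjusted p = 0.0634). The adjusted p for ITGA1 was under the threshold in 3 of 14 alternative settings, DESeq2 among them. The within-P12 and within-P13 differences were -1.78 and -2.07. ITGA10 ranged from 34.0 to 97.5 over the 6 libraries and ITGA11, at no more than 9 reads in any library, was at the limit of what this depth shows.

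The receptors for fibronectin, vitronectin and other RGD-containing ligands moved in different directions. ITGB5 (ENSG00000082781, chromosome 3 from 124761948 to 124901418, minus strand) encodes beta5, which pairs with alphaV to bind vitronectin. It had 2099, 3840 and 3733 normalized reads in the GOLPH3-labelled libraries and 1532, 976 and 1490 in the Vector-labelled ones, and the groups did not overlap. The means were 3224 ± 976 and 1332 ± 309 (SD, n = 3), a rise of 1.25 on the log2 scale (SE 0.33, limma adjusted p = 0.0479). The within-P12 and within-P13 differences were 1.33 and 1.32. The call sat at the threshold and was lost without GOLPH3 replicate 2 (adjusted p = 0.157 from limma), GOLPH3 replicate 3 (0.188), Vector replicate 1 (0.129), Vector replicate 2 (0.138) or Vector replicate 3 (0.0972). Without each of these the log2 change of ITGB5 was 1.10, 1.12, 1.37, 1.04 and 1.35.

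ITGAV, the alphaV chain that ITGB5 needs, had 2014, 1262 and 948 normalized reads against 2028, 2580 and 1543, with overlapping groups. ITGA5, the classical fibronectin receptor chain, ranged from 1706 to 2736 in the GOLPH3-labelled and from 1756 to 3081 in the Vector-labelled libraries. Neither passed the test. The beta partners that bind alphaV but few or no other alpha chains were low beside ITGB5 and ITGB1, and ITGB3 had 5.15 to 17.5 normalized reads over the 6 libraries, ITGB6 1.03 to 7.51 and ITGB8 50.2 to 175. For ITGB3, 51.6% of the exon bases are shared with other annotated genes, and for ITGB6 20.6%, so their reads are uncertain. ITGA2B, the platelet fibrinogen receptor chain, ranged from 38.8 to 191, while of the platelet genes PPBP, PF4 and GP9 were at 0 in every library and GP1BA had 42.2 to 99.5 normalized reads. The 8 platelet and endothelial markers summed to 88.6 to 103 in the GOLPH3-labelled and 57.6 to 122 in the Vector-labelled libraries. Of 5 tested 0 were called, beside 5.07% of all genes.

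ITGA8 (ENSG00000077943, chromosome 10 from 15513949 to 15720125, minus strand) encodes alpha8, a receptor for nephronectin that kidney development requires. It had 1.07, 2.47 and 0 normalized reads in the GOLPH3-labelled libraries, at most 3 reads in any, and 56.6, 16.4 and 61.8 in the Vector-labelled ones. It was lower in the GOLPH3-labelled libraries (limma adjusted p = 0.00287). The Vector-labelled mean was 15.2-fold the limit of 3 reads per library averaged over the group. Such folds leave out the spread between the Vector-labelled libraries. ITGA4 (ENSG00000115232, chromosome 2 from 181457202 to 181536187, plus strand), the alpha4 chain that binds VCAM-1 and fibronectin, had 1.07, 0 and 0 normalized reads there, 1 read in all. In the Vector-labelled libraries ITGA4 had 104, 55.9 and 116, a mean 31.0-fold that limit. It was lower in the GOLPH3-labelled group (adjusted p = 5.55e-05 from limma). For both genes the smallest Vector-labelled value was in replicate 2 (P11), and both calls held with each library left out in turn.

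Of all genes, 174 combined a maximum of 3 reads in any GOLPH3-labelled library with a minimum of 50 normalized reads in the Vector-labelled ones, ITGA4 the sole member among them, and no gene showed the reverse. Their summed share was 0.311% in Vector replicate 1, 0.198% in replicate 2 and 0.545% in replicate 3. Most of the embryonic kidney line list moved with ITGA4 and ITGA8. Its 5 lower genes were IRS4, UCHL1, NEFL, NEFM and LIN28B, with 0 to 5.37 normalized reads in the GOLPH3-labelled and 346 to 4831 in the Vector-labelled libraries. Of the others, PAX2 had 134, 112 and 130 against 104, 88.7 and 148, ALK had 2.15, 14.8 and 11.7 against 1.03, 4.38 and 0, and INA had at most 3 reads everywhere. Among the Vector-labelled libraries IRS4 and UCHL1 were lowest in replicate 2, as ITGA4 and ITGA8 were, while NEFL and NEFM were lowest in replicate 1 and LIN28B in replicate 3. The kidney line list was chosen with earlier results of these data known. The part of these genes in the result was not tested.

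The leukocyte subunits were low. ITGA9, close to ITGA4 in sequence, had 29, 12.4 and 21.3 normalized reads against 77.2, 34.0 and 78.1, with no overlap and a log2 difference of -1.53 (SE 0.53, limma adjusted p = 0.144). ITGAX, known from dendritic cells as CD11c, had 31.1, 24.7 and 88.6 against 4.12, 17.5 and 12, also with no overlap, at a log2 difference of 1.97 (SE 0.67, limma adjusted p = 0.131). Neither passed the test, and GOLPH3 replicate 3 alone held most of the ITGAX reads of its group. ITGAE, which binds E-cadherin, was the most abundant of these subunits at 254 to 417 normalized reads over the 6 libraries. ITGAM had 12.9 to 22.4, ITGB2 1.10 to 34.3, ITGB7 0 to 19.2, and ITGAL no more than 2 reads in any library. Of the exon bases of ITGB7, 42.1% are shared with other genes. The 8 leukocyte markers summed to 51.1 to 106 normalized reads in the GOLPH3-labelled and 92.0 to 265 in the Vector-labelled libraries. Of them 3, PTPRC and CD3E included, had no more than 3 reads in every library. Of 6 tested, 1 was lower, beside 4.12% of all genes called lower.

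ITGB1, the beta1 chain shared by most of these alpha chains, had 10989, 12734 and 8546 normalized reads in the GOLPH3-labelled libraries and 8155, 8309 and 4543 in the Vector-labelled ones. The lowest GOLPH3-labelled library was just above the highest Vector-labelled one. The log2 difference was 0.65 (SE 0.32, limma adjusted p = 0.329), below what the test could call, with a 95% interval from -0.05 to 1.36.

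Since alpha and beta chains work in pairs, the make-up of each family within a library was also computed, as the share of normalized reads per exon kilobase. These shares were chosen after the values were seen and are given with no test. ITGA3 held 40.3%, 58.0% and 61.2% of the alpha chain reads per kilobase in the GOLPH3-labelled libraries and 32.5%, 18.4% and 34.2% in the Vector-labelled ones. The mean ITGA5 share was 8.35% ± 1.16 against 16.7% ± 2.74, and that of ITGAV 5.15% ± 3.68 against 13.9% ± 4.13 (SD, n = 3). The ranges of these shares did not overlap, although ITGA5 itself did not differ detectably between groups, because shares within a library are tied to each other. Among beta chains, ITGB4 held 38.0% ± 9.91 against 22.7% ± 9.63 and ITGB1 48.4% ± 11.3 against 64.7% ± 13.2 (SD, n = 3), with overlapping ranges. Summed over the family, the alpha chains reached 2607, 5009.7 and 3866 normalized reads per kilobase against 2345, 1700 and 1494, and the beta chains 3203, 4032 and 3983 against 2011, 1811 and 1501.

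**Figure D2:**
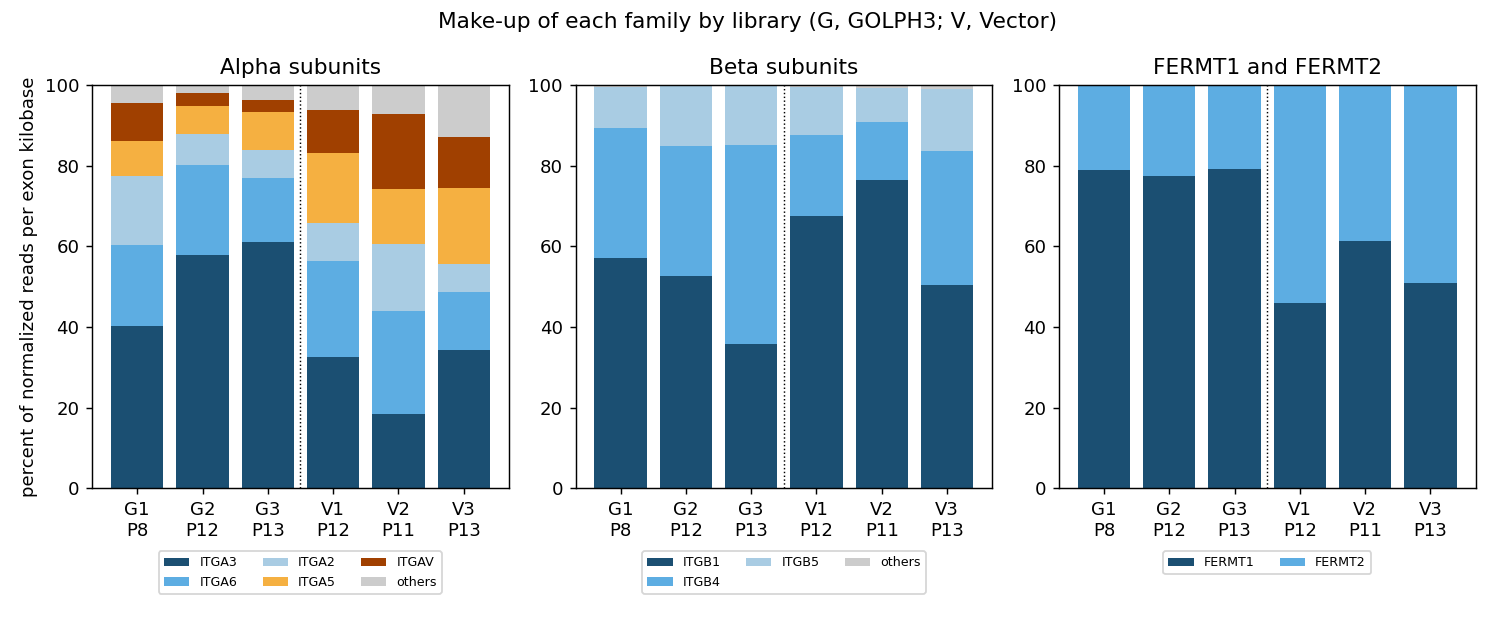
Share of each chain in the normalized reads per exon kilobase of its family, in percent, for alpha subunits, beta subunits and the pair of kindlins 1 and 2, with 1 bar per library (G, GOLPH3-labelled; V, Vector-labelled) and its P number. ITGA3 takes 40.3% to 61.2% of alpha in G bars against 18.4% to 34.2% in V bars, and FERMT1 77.4% to 79.1% of FERMT1 plus FERMT2 against 45.9% to 61.4%.

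Among the cytoplasmic proteins none of the 20 passed an adjusted p under 0.05 in limma or in edgeR on the recovered reads, and DESeq2 called 1, TNS2. At an unadjusted p under 0.05, limma had 6 higher and 1 lower, 7 of 20 (35.0%) beside 17.6% of all genes. The groups did not overlap for 5 (25.0%) beside 22.0%. Talin 1, encoded by TLN1, which joins the beta tail to actin, had 5274, 6413 and 6169 normalized reads against 5154, 3763 and 5912. Its log2 difference was 0.29 (SE 0.28, limma adjusted p = 0.656), with a 95% interval from -0.33 to 0.90. TLN2 ranged from 190 to 352 over the 6 libraries.

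The kindlins lay on opposite sides. FERMT1, kindlin-1 of epithelial cells, had 1724, 1669 and 1446 normalized reads against 938, 1274 and 669, and FERMT2, the broadly expressed kindlin-2, had 731, 772 and 605 against 1753, 1271 and 1026. Neither pair of groups overlapped. The log2 difference was 0.79 (SE 0.30, limma adjusted p = 0.189) for FERMT1. For FERMT2 it was -0.91 (SE 0.30, limma adjusted p = 0.116), so neither was called on its own. Of the FERMT1 and FERMT2 reads per kilobase together, FERMT1 made up 78.9%, 77.4% and 79.1% in the GOLPH3-labelled libraries and 45.9%, 61.4% and 50.9% in the Vector-labelled ones. The mean shares of 78.5% ± 0.924 and 52.7% ± 7.91 (SD, n = 3) differ by 25.8 percentage points, and by 22.3 to 30.1 with each library left out. Because the genes lie without overlap on opposite sides, their shares had to separate too, also with any library left out. The shares, chosen after the values were seen, are therefore no separate evidence. The haematopoietic kindlin-3 gene FERMT3, no member and not in these shares, had 68.7, 52.8 and 72.6 normalized reads against 8.23, 34 and 37.8. FERMT1 marks epithelium, and 11 of the 12 epithelial markers tested had fitted differences above 0, as it did. Of the 12 tested, 4 were called higher and 0 lower, beside 0.953% of all genes called higher. CDX2 went the other way, at 247 to 358 normalized reads in the GOLPH3-labelled and 184 to 897 in the Vector-labelled libraries. Its log2 difference was -0.52 (limma adjusted p = 0.636). VIL1 had at most 4 reads in any library. The 14 listed summed to 82259 to 155589 normalized reads in the GOLPH3-labelled against 38377 to 45589 in the Vector-labelled libraries. KRT8 alone had 25226 to 75110 against 13626 to 23728. KRT20 and CDX1 were at no more than 3 reads. Of 11 mesenchymal markers tested, 4 (VIM, CDH2, ZEB1 and ZEB2) were lower and 0 higher, beside 4.12% of all genes called lower. The list was mixed, and 5 of the 11 had fitted differences above 0. At an unadjusted p under 0.05 in limma, 2 were higher (COL1A1 and S100A4) and 6 lower, beside 17.6% of all genes. The 13 listed summed to 2992 to 6127 against 5134 to 7139. The part of the epithelial and mesenchymal markers in the kindlin, ITGA3 and ITGB4 differences was not tested.

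Of the complex of ILK with PINCH and parvin, no member passed the test. ILK, a pseudokinase that scaffolds the complex, had only 19.3, 48.7 and 41.6 normalized reads against 13.4, 17.5 and 24.9, a log2 difference of 0.88 (SE 0.54, limma adjusted p = 0.450). For ILK 78.5% of the exon bases are shared with other genes, TAF10 among them, and counting may leave out reads in shared bases, so this level is uncertain. TAF10 had 90.2, 418 and 464 normalized reads against 144, 70.1 and 271. LIMS1, encoding PINCH-1, ranged from 795 to 1283 in the GOLPH3-labelled and 1056 to 1942 in the Vector-labelled libraries, and it has near-identical copies that can share its reads. LIMS2 ranged from 48.9 to 133, PARVA from 506 to 1055 and PARVB from 318 to 648 over the 6 libraries, with overlapping groups for each of the 5 genes.

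All 4 tensins, which bind integrin tails, had fitted differences above 0, with a median of 0.59 on the log2 scale. TNS2 had 393, 300 and 442 normalized reads against 178, 133 and 212, with no overlap. Its log2 difference of 1.12 (SE 0.33, limma adjusted p = 0.0840) was the highest among the cytoplasmic proteins and missed the threshold. TNS4, a short tensin that lacks the actin-binding part, had 1227, 1205 and 1791 against 859, 845 and 720 and did not overlap either, at 0.78 (SE 0.28, limma adjusted p = 0.165). TNS1 ranged from 163 to 343 and TNS3 from 242 to 594. TNS4 made up 74.3% ± 5.25 of tensin reads per kilobase in the GOLPH3-labelled libraries and 73.4% ± 5.59 in the Vector-labelled ones (SD, n = 3), a difference smaller than the spread.

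Of the adaptors at the actin end, VCL (vinculin) ranged from 4349 to 5872 against 4295 to 6037 normalized reads, with a mean of 5202 ± 778 and 5206 ± 873 (SD, n = 3). ZYX (zyxin) ranged from 2303 to 6896 against 1677 to 4792. PXN, encoding paxillin, the docking protein for FAK, had 2471, 6093 and 4597 against 2817, 1480 and 2085, and GOLPH3 replicate 1 lay inside the Vector-labelled range. Its log2 difference was 1.00 (SE 0.37, limma adjusted p = 0.175), and without GOLPH3 replicate 1 it passed the threshold (limma adjusted p = 0.0414).

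FAK, encoded by PTK2, the kinase that integrin clustering activates, had 4190, 2518 and 2801 normalized reads against 2334, 3374 and 2002. The groups overlapped, and the log2 difference was 0.30 (SE 0.31, limma adjusted p = 0.676). Its partner kinase SRC had 1165, 1610 and 1712 against 828, 506 and 983, with no overlap, at a log2 difference of 0.99 (SE 0.32, limma adjusted p = 0.118). BCAR1, the scaffold p130CAS that both kinases phosphorylate, had 1156, 2024 and 2083 against 936, 451 and 1261, where GOLPH3 replicate 1 fell below Vector replicate 3. Its difference was 1.06 (SE 0.40, limma adjusted p = 0.176). NEDD9, the related scaffold, had 8.59 to 28.9 against 19.7 to 46.3 normalized reads.

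**Figure D3:**
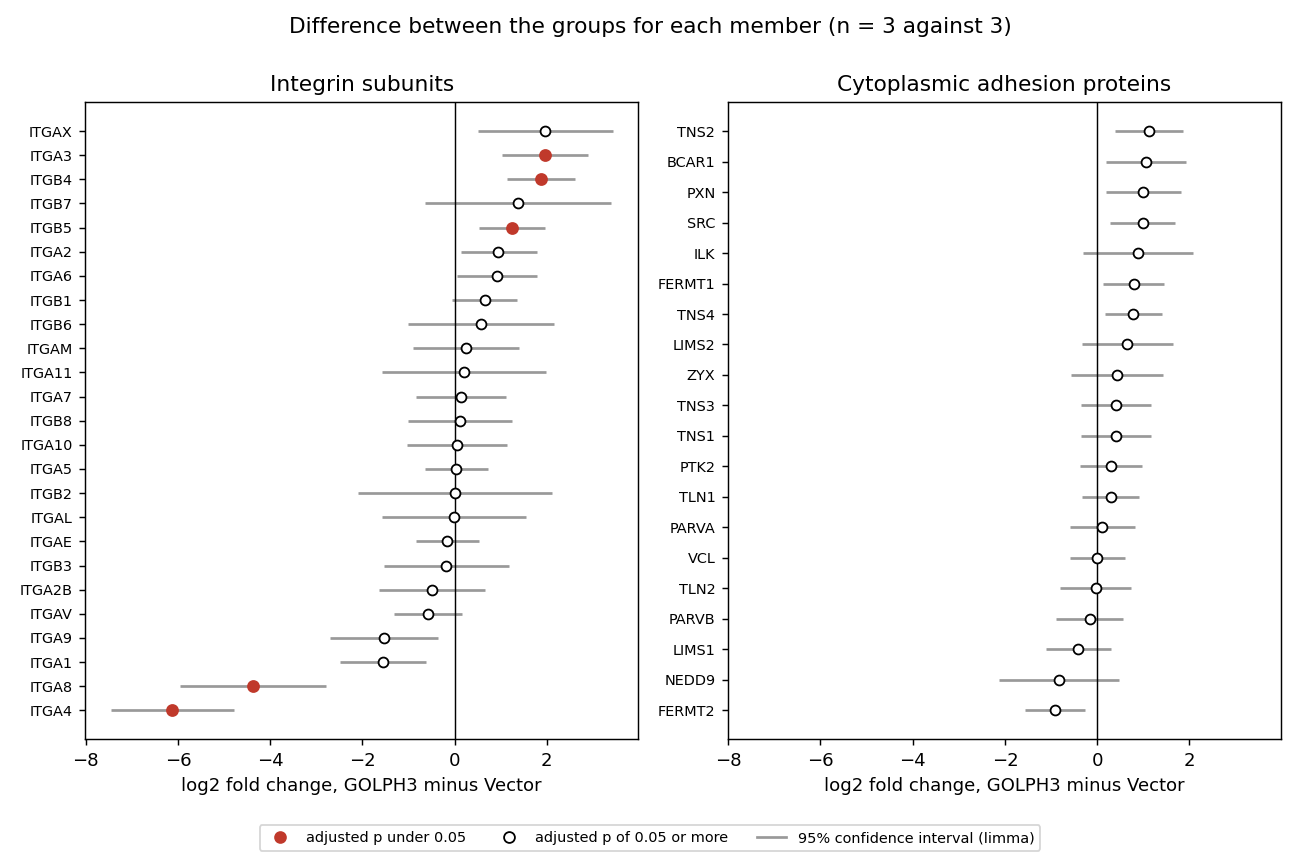
Difference between the GOLPH3-labelled and Vector-labelled libraries for each member in log2 units, with the 95% confidence interval from limma as a line and filled points for an adjusted p under 0.05 (n = 3 against 3). Filled points are found among the integrin subunits alone (ITGA3, ITGB4, ITGB5, ITGA8 and ITGA4), and the cytoplasmic proteins lie between -0.91 and 1.12. ITGA4 and ITGA8 had at most 3 reads per GOLPH3-labelled library, so their plotted values depend on the pseudocount.

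The classes were then set side by side. Among subunits, 5 of 25 (20.0%) had an adjusted p under 0.05 in limma with Benjamini-Hochberg adjustment, 3 higher and 2 lower, against 0 of 20 cytoplasmic proteins and 5.07% of all genes, and this difference between the classes was not tested. At an unadjusted p under 0.05 the classes were close, with 10 of 25 (40.0%) and 7 of 20 (35.0%) beside 17.6% of all genes. The groups did not overlap for 9 integrin subunits (36.0%) and 5 cytoplasmic proteins (25.0%), beside 22.0% of all genes. The median size of the log2 difference, whatever its sign, was 0.58 for the subunits, 0.54 for the cytoplasmic proteins and 0.51 over all genes. The signed medians were 0.11 and 0.40, with 16 of 25 and 15 of 20 above 0. Setting genes at or under 3 reads in only 1 group to that limit moved neither median. ITGA4 and ITGA8 stayed the lowest subunits, ITGA11 stayed above the median, and no cytoplasmic protein had so few reads. ITGAL, with at most 2 reads in every library of both groups, kept its fitted difference of -0.02. On which side of the median it truly lies cannot be told at this depth. Leaving aside ITGA4 and ITGA8, fitted differences ran from -1.55 to 1.97 among subunits and from -0.91 to 1.12 among cytoplasmic proteins. The classes differed in level too: 8 of 25 subunits and 11 of 20 cytoplasmic proteins had a group mean over 100 normalized reads per exon kilobase, and 11 subunits against 2 cytoplasmic proteins had at most 100 reads in every library, where the intervals are wider.

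The P number gave a second view of the same libraries. The P12 and the P13 differences had the same sign for 36 of 45 members (80.0%), beside 68.3% of all genes tested. Of the 9 with opposite signs, 0 had both differences at 0.5 or more in size. Among integrin subunits it was 19 of 25, and among cytoplasmic proteins 17 of 20. In the P12 libraries 10 members were the highest of their group in both groups (22.2%, beside 14.2% of all genes), ITGA3, ITGA6, ITGB5, VCL, ZYX and PXN among them, and 3 were the lowest in both (6.67%, beside 13.1%). In the P13 libraries 10 were the highest in both groups (22.2%, beside 18.5%) and 7 the lowest (15.6%, beside 15.7%). With the P number as a block, a fit with 1 residual degree of freedom that leans on the pooled spread, 14 integrin subunits and 8 cytoplasmic proteins had an adjusted p under 0.05 in limma, where 22.9% of all genes did. P8 and P11 each occur in 1 library only, so there the P number and the group cannot be told apart.

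**Figure D4:**
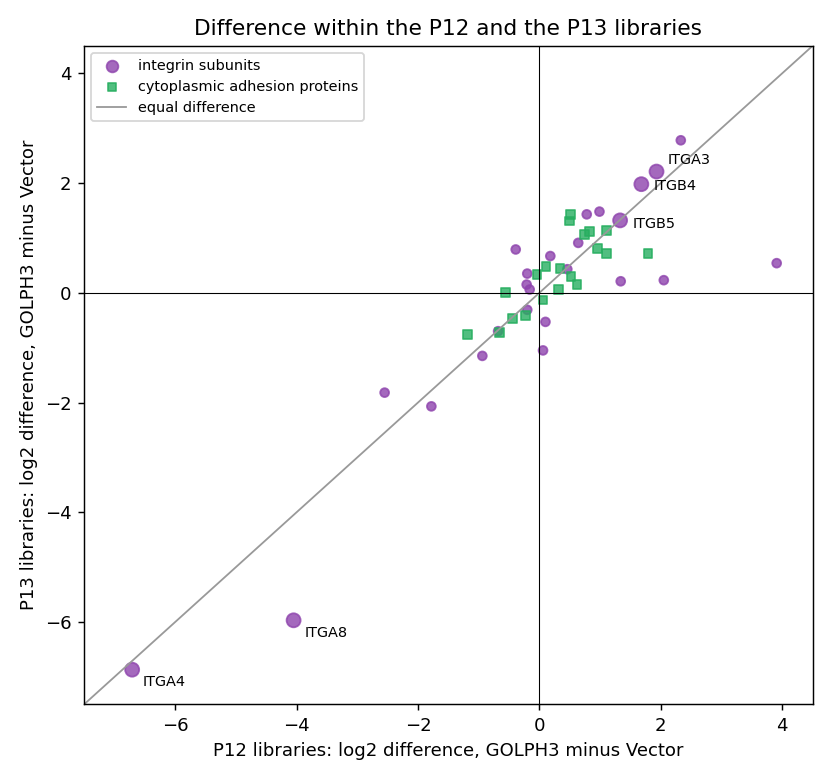
Difference between GOLPH3-labelled and Vector-labelled libraries within P13 (vertical) against that within P12 (horizontal) for each of the 45 members, in log2 units, with larger named points for the 5 members that passed the test and a line for equal differences. The signs are the same for 36 members, and ITGA3, ITGB4 and ITGB5 lie at 1.93, 1.68 and 1.33 on the horizontal and 2.21, 1.98 and 1.32 on the vertical axis.

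Most other genes of the pathway did not pass the test. Of 50 tested among 52 further components of cell adhesions, 0 were higher and 3 (6.0%) lower, near the 5.07% of all genes called and the 4.12% called lower, with a median log2 fold change of 0.26. The 3 are described for their values alone. LAYN, a hyaluronan receptor that binds talin, had 2.15, 0.825 and 0 normalized reads against 115, 75.6 and 289. It was lower in the GOLPH3-labelled libraries (limma adjusted p = 9.67e-05), with a Vector-labelled mean 54.0-fold the limit of 3 reads. ARHGEF6, an exchange factor for RAC and CDC42 that binds parvin, had 65.5, 33.0 and 23.5 against 268, 172 and 253, and fell by 2.58 on the log2 scale (SE 0.45, limma adjusted p = 0.00422). ELMO1, which activates RAC with DOCK proteins, had 9.66, 2.47 and 2.13 against 42.2, 36.2 and 61.8 and fell by 3.25 (SE 0.63, limma adjusted p = 0.00847). Without Vector replicate 3 the ELMO1 call was lost (limma adjusted p = 0.0722).

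Of 14 tested regulators of integrins among 15 listed, limma with Benjamini-Hochberg adjustment called 0, and at an unadjusted p under 0.05 there was 1 higher and 2 lower, 3 of 14 (21.4%) and near the 17.6% of all genes. These were the tetraspanin CD9, with 4670, 3985 and 5911 against 2571, 3040 and 1931 normalized reads, the small GTPase RAP1A, which brings talin to the membrane, with 790, 712 and 623 against 1312, 1312 and 917, and the integrin-associated protein CD47, with 853, 596 and 789 against 1130, 1517 and 1023. Their log2 differences were 0.95, -0.72 and -0.71, with limma adjusted p-values of 0.0916, 0.203 and 0.229.

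Of 33 tested integrin ligands among 36 listed, 1 was higher and 5 lower (18.2% in all), beside 5.07% of all genes called, 0.953% higher and 4.12% lower. EDIL3, a ligand of alphaV integrins, was at 0 in the GOLPH3-labelled libraries and had 135, 76.7 and 129 in the Vector-labelled ones (limma adjusted p = 1.41e-05). Its Vector-labelled mean was 38.3-fold the limit of 3 reads. COL4A2, a chain of basement membrane collagen IV, had 1.07, 2.47 and 2.13 normalized reads against 613, 195 and 1655 (adjusted p = 2.29e-05 from limma). Its Vector-labelled mean was 277-fold the limit of 3 reads, which its own highest GOLPH3-labelled count reached. COL4A1, its neighbour in head-to-head orientation and the partner chain, had 6.44, 2.47 and 2.13 against 324, 150 and 692, and fell by 6.23 on the log2 scale (SE 0.62, limma adjusted p = 5.09e-05). The higher one, named after its values were seen, was LAMA5, a laminin alpha5 chain of basement membranes, with 9723, 13754 and 15959 against 3625, 2268 and 5667. It rose by 1.84 on the log2 scale (SE 0.36, limma adjusted p = 0.00938). Another laminin alpha chain, LAMA1, had 10.7, 0 and 2.13 against 297, 249 and 559 and fell by 6.70 (SE 0.77, limma adjusted p = 0.000169). The remaining lower one, TNC (tenascin C), had 3.22, 74.2 and 10.7 against 415, 136 and 324 and fell by 4.10 (SE 0.85, limma adjusted p = 0.0142). LAMA1 and TNC were also named after their values were seen.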

How the data were processed

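Total RNA of HCT-116 lines was sequenced. The deposited signal per gene and library is a read count scaled by the authors with a size factor, since 100.0% of nonzero values were whole multiples of 1 step per library (0.8246 to 1.0955, tolerance 0.05 reads). The submitters' processing notes name fastp 0.20.0, HISAT2 2.1.0, Cufflinks, featureCounts 1.6.1, DESeq2 and GRCh38, with no role or order. Strand is not given in the sources used here. Of 60590 entries, 44 repeated an identifier and were added to the first. Exon lengths came from GENCODE 29, which held 58367 (96.4%) of the identifiers. Groups and P numbers came from the library titles.

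limma 3.58.1 (R 4.3.3) was fitted to log2(value + 1) over 26536 genes, its prior variance depending on the mean, 3 libraries against 3, two-sided, with Benjamini-Hochberg adjustment. The pseudocount understates changes of low genes. Alternatives were edgeR 4.0.16 and DESeq2 1.42.0 on the recovered reads, other filters, pseudocount and normalization, blocks, and each library left out. On those reads edgeR called 1113 genes. Scripts were tested on simulated data. Values are given per library for members with an adjusted p under 0.05, for those without overlap at an absolute log2 change of at least 1, for ITGB1, TLN1, FERMT1, PTK2 and ILK, and for the 3 genes of each context list with the smallest p. Fits and values per library are also given for other members with an unadjusted p under 0.05, an addition made after the values were seen. Outside these rules, values per library are given for ITGAV, FERMT3, TAF10, PAX2, ALK, LAMA5, LAMA1, TNC and the GOLPH3 gene. Members and lists were chosen with earlier results of these data known.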

Additional observations from a re-analysis of the deposited data

How the results depend on the processing

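ITGB4, ITGA8 and ITGA4 passed an adjusted p under 0.05 in 14 of 14 alternatives, ITGA3 in 10 and ITGB5 in 6, and none of the 30 genes refitted under the alternatives turned its direction. The count of integrin subunits called was 5, and it was 8 with DESeq2 (adding ITGA1, ITGA9 and ITGAX), 14 with the P number as a block, and 3 with the replicate number as a block. With each library left out in turn it ran from 3 to 6, and it was 3 without GOLPH3 replicate 2, GOLPH3 replicate 3 or Vector replicate 3. The count of cytoplasmic proteins called was 0, and it was 1 with DESeq2 (TNS2), 8 with the P number as a block, and 0 to 1 with each library left out. Quantile normalization, both other filters, a pseudocount of 0.1 and edgeR gave 4 or 5 subunits and 0 cytoplasmic proteins. The cause of these differences was not tested. The deviations from the group mean of samples with the same replicate number had correlations of -0.23, -0.15 and 0.26, the last for the P13 pair. The replicate block moved the calls over all genes from 1346 to 1081. Samples with the same P number correlated at 0.26 in both pairs, and the P block called 6082 genes. The highest correlation, 0.33, was between GOLPH3 replicate 1 (P8) and Vector replicate 2 (P11), which share neither number. Whether either number marks paired samples was not tested. Over all genes, leaving out 1 library gave 459 to 1528 calls, fewest without Vector replicate 1. DESeq2 called 1994. The median change ran from 0.03 to 0.29 over integrin subunits and from 0.35 to 0.55 over cytoplasmic proteins. Depth limits ITGA11, ITGAL, ITGB6 and the GOLPH3-labelled values of ITGA4 and ITGA8, which lay near 3 reads.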
